A study of Mus musculus with 12 samples.

Results

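Loss of the microRNA miR-451a was compared with its presence in mandibular lymph nodes of mice sensitized to a contact allergen, and the genes that differed by genotype in the same direction both before and after the allergen was met again were collected. All 12 libraries of the study entered the comparison. The 2 knockout groups (KO) were averaged and set against the average of the 2 wild-type groups (WT). Of 20034 genes tested, 926 passed this averaged comparison and had the same sign in both states, 572 higher and 354 lower in KO. That is 4.62% of the genes tested, 2.86% higher and 1.77% lower. In all, 950 genes passed (4.74%), and 24 of them (0.12%) had opposite signs in the states. Passing means a Benjamini-Hochberg adjusted p under 0.05 over all genes tested in edgeR's quasi-likelihood test. These values chose the genes, so their size is described here and supports nothing further.

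All mice, KO and WT, were sensitized with 100 µl of 0.5% 1-fluoro-2,4-dinitrobenzene (DNFB), a small reactive chemical that makes skin proteins allergenic, on the shaved abdomen on days 0, 1 and 2. In the sensitized state, nodes of KO and of WT mice were taken on day 9. In the challenged state, 20 µl of 1% DNFB was put on the left ear on day 9 and nodes of KO and of WT mice were taken on day 10, 24 hours later. State and day of harvest therefore cannot be told apart. Total RNA was sequenced in 3 libraries per group. The labels give the genotype only as KO or WT, without the strain, the age, the sex or the way the deletion was made. Whether each library of a group stems from its own mouse is not stated either, so the p-values reflect variation among libraries, which may be technical in part. An effect of miR-451a loss cannot be told apart from any other inherited difference between the KO and the WT mice.

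MicroRNAs are short RNAs that guide the Argonaute protein to messenger RNAs carrying a match to their seed, which then are repressed. miR-451a is best known from red blood cell precursors, and it is unusual in that its precursor is cleaved by Argonaute2 itself and not by Dicer. In contact allergy, T cells primed in the draining node respond to a later contact with the same chemical. Among them, some helper T cells and some γδ T cells make the cytokine IL-17A. γδ T cells bear a T cell receptor of a γ and a δ chain and can release IL-17A quickly, without long priming.

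The mature miR-451a is shown with its seed in capitals because the knockout removes it. Below it stand 4 sites from 3′ UTRs of genes that passed, with the 7 bases that pair with the seed in capitals. In 3 of them the next base, A, is also in capitals. It stands opposite the first base of the miRNA and does not pair with it. The site of Lef1, which recurs below, lacks that A.
miR-451a: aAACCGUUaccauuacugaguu
Cep55 site: tgctattgtagAACGGTTActagcaaagtt
Rnf103 site: cttattcttggAACGGTTAgctttccctga
Kdm5a site: aaagatgactcAACGGTTAagaatcctggc
Lef1 site: agaaagccgaaAACGGTTgtttcggaaaa
The miRNA sequence is from RefSeq (build GRCm38.p6, chr11:78073186-78073207, plus strand) and the sites are from annotated transcripts of that build's GENCODE set.

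Promoter stretches, also from RefSeq (GRCm38.p6), are shown for 2 gene pairs on which the results turn, the neighbours Il17a and Il17f, which moved together, and the neighbours Slfn9 and Slfn8, which moved apart. Each runs from 250 bases before to 50 bases after the annotated start. Capitals mark AGGTCA on either strand, the core letters of many nuclear receptor sites, in the first pair, and GAAA, any 2 bases and GAAA again on either strand, a core pattern of interferon response elements, in the second.
Il17a promoter (chr1:20730655-20730954, plus strand): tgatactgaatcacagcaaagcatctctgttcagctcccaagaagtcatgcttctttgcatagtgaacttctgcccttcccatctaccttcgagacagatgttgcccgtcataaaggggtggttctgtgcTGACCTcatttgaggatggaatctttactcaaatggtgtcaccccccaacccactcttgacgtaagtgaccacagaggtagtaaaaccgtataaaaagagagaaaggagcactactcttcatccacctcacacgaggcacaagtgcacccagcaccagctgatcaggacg
Il17f promoter (chr1:20784221-20784520, minus strand): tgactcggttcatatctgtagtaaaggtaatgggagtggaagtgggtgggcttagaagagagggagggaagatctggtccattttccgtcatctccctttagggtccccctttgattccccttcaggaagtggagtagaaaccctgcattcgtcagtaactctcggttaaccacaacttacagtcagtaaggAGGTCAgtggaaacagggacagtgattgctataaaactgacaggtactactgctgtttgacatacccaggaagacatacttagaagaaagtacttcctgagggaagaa
Slfn9 promoter (chr11:82991781-82992080, minus strand): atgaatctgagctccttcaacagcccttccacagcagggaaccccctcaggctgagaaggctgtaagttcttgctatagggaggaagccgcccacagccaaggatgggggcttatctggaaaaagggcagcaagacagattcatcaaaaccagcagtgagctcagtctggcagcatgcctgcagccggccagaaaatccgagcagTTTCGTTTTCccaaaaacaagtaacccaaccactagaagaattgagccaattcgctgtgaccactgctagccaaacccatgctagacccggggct
Slfn8 promoter (chr11:83020761-83021060, minus strand): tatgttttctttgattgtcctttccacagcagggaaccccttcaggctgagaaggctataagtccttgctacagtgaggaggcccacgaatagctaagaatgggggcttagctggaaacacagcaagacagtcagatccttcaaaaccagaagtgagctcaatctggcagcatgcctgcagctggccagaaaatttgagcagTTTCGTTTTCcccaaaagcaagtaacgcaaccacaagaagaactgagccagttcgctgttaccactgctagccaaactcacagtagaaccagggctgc
AGGTCA, searched on both strands, stood in 16.04% of all 27025 promoters of this length, in 12.8% of the 12236 promoters of genes tested, in 15.7% of those of genes higher in KO and in 11.6% of those of genes lower in KO. The pattern of the second pair stood in 3.49% of all promoters, in 3.30% of those of genes tested, in 5.72% of those of genes higher in KO and in 2.79% of those of genes lower in KO. A match is a run of letters and not a known binding site.

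Each library held 36946696 to 58405576 estimated counts. T and B cell markers were high in all libraries, with summed levels of 1082 to 1925 CPM (counts scaled to a common library size) over 9 T cell markers and 1263 to 3343 CPM over 8 B cell markers. Salivary gland transcripts were also present, since 19 salivary genes took 1.86 to 13.5% of all counts. Their share was 4.10 ± 1.87% in sensitized KO libraries, against 9.56 ± 3.72% in sensitized WT libraries, and 7.18 ± 2.74% in challenged KO libraries, against 2.26 ± 0.58% in challenged WT libraries (SD, n = 3 each). The share thus differed in opposite directions in the 2 states. Averaged over states it was 5.64% in KO and 5.91% in WT (difference −0.264 percentage points, exact permutation test within states, two-sided p = 0.92, where the smallest possible p is 0.005). On the log scale of the averaged comparison the balance was the other way, with a median log2 fold change of 0.59 over the 19 salivary genes and 16 of them above 0. None of the 19 salivary genes had the same sign in both states in edgeR's fit. Thus none could pass there with the same sign, adjusted or not, and DESeq2 gave 0 such calls too. With opposite signs 0 passed the averaged comparison. Libraries with more Xist than Ddx3y RNA numbered 1 of 3 in the sensitized KO and 1 of 3 in the sensitized WT group, and 2 of 3 in the challenged KO and 2 of 3 in the challenged WT group. Every group thus held libraries of both kinds, which points to more than 1 mouse per group.

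More genes passed before the challenge than after it. In the fit of all 12 libraries, the contrast within sensitized nodes gave 1035 genes (5.17%) and that within challenged nodes 120 (0.599%), and a gene that passes in a state alone passes that contrast. Fitted on only the 6 libraries of a state, sensitized nodes gave 1006 genes and challenged nodes 153. Of the 572 shared genes higher in KO, 428 also passed in sensitized nodes alone and 31 in challenged nodes alone, with median log2 fold changes of 0.71 and 0.32 in the 2 states. Of the 354 lower in KO, 167 passed in sensitized and 16 in challenged nodes, with medians of −0.36 and −0.28. More than 2-fold differences were found for 150 of the higher and 22 of the lower genes. In 518 of the 926 genes KO and WT libraries did not overlap in either state. Of all genes tested, 845 (4.22%) showed no overlap in both states in the same direction. Passing in neither state on its own was seen in 316 of the 926. At the edge of the threshold, Sp4 was just inside (adjusted p 0.0499) and Brap just outside (0.0501).

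The 2 states rest on different libraries, so a call in 1 state can be set beside the sign in the other. Of the 1035 calls in sensitized nodes, 760 (73.4%) had the same sign in challenged nodes, against 53.3% of all genes tested. The share was 73.6% for calls higher in KO and 73.0% for calls lower in KO. With each state fitted on its own 6 libraries, these shares were 77.2% and 61.3%, and 72.1% over both directions. Of the 120 calls in challenged nodes, 47 (39.2%) had the same sign in sensitized nodes. Here the directions parted: 31 of 103 higher calls (30.1%) and 16 of 17 lower calls (94.1%) kept their sign. On 6 libraries per state, 40 of 153 challenged calls (26.1%) had the same sign in sensitized nodes, 28 of 139 higher (20.1%) and 12 of 14 lower (85.7%). Over all genes the log2 fold changes of the 2 states had a Pearson correlation of −0.15, a description over genes that share libraries and salivary content.

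The counts moved when single libraries were left out and in the fits that dealt with salivary content. Leaving out 1 library at a time gave 397 to 997 shared genes, with 545 or fewer without sensitized KO replicate 1 (545), 2 (427) or 3 (502), challenged KO replicate 2 (445), sensitized WT replicate 1 (431), or challenged WT replicate 1 (422) or 2 (397). Of the 926 genes, 392 to 772 were called again in these fits. When the most salivary library of each group was left out, 110 genes passed, 104 of them among the 926. That fit has fewer libraries per group and so less power, and no other such set was left out for comparison. Here and below, its losses of calls therefore cannot be assigned to salivary content. With a salivary score as covariate 337 passed, 310 of them among the 926. The score ran from −9.88 to 3.84 in sensitized KO, against 3.13 to 11.6 in sensitized WT libraries. In challenged KO libraries it ran from 6.09 to 12.8, against −11.9 to −8.96 in challenged WT libraries. It thus overlaps with the genotype contrast within each state and with the interaction, so calls of these lost with the score cannot be read either way.

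**Figure D1:**
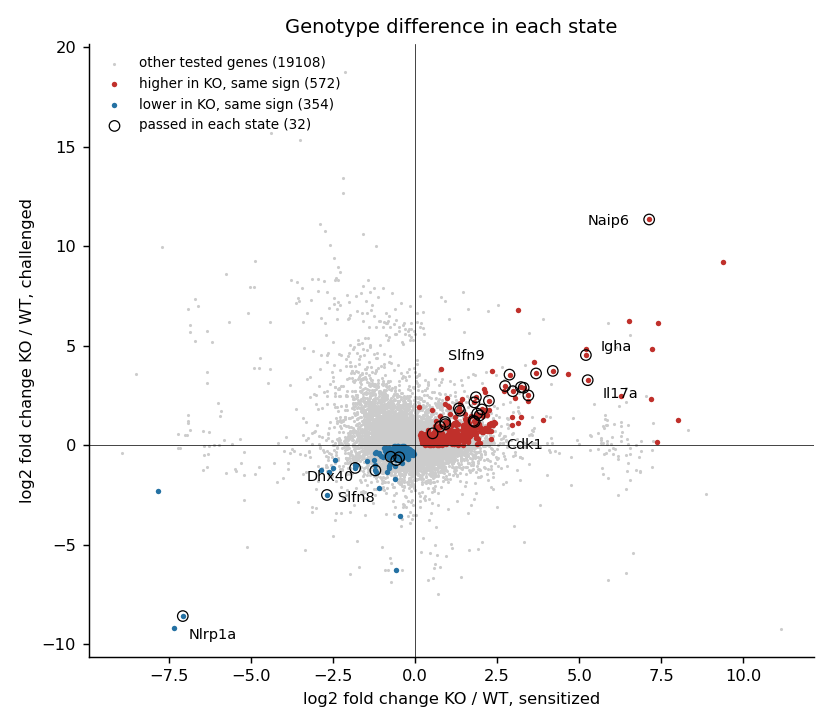
Log2 fold change of KO over WT in sensitized nodes (x axis) and in challenged nodes (y axis) for the 20034 genes tested, 1 point each. Red and blue points are the 572 higher and 354 lower genes that passed the averaged comparison with the same sign, and circles mark the 32 that passed in each state on its own; the cloud of grey points runs towards the upper left, where the states have opposite signs. Far out, where fitted values of genes with counts of 0 depend on the prior count, distances are no measure of fold.

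The strictest set, genes that passed in each state on its own and in the same direction, held 32 genes (0.160%), 25 higher (0.125%) and 7 lower (0.0349%) in KO. By contrast 7 genes (0.0349%) passed in both states in opposite directions. Named by their place in the genome, the 25 higher genes included 5 of the T cell receptor γ locus on chromosome 13 (Tcrg-V6, Tcrg-C1, Tcrg-C2, Trgv2 and Tcrg-C4) and 2 of the δ locus on chromosome 14 (Trdv4 and Trdc). They also held Cd163l1 and 5830411N06Rik, which are neighbours on chromosome 7 and encode the scavenger receptors SCART1 and SCART2 of γδ T cells. Il17a and Il17re, which encodes a receptor chain for IL-17C, belonged to the set too. So did Igha, the constant region of IgA, and Ube2c, a ubiquitin-conjugating enzyme of mitosis. A further group of near neighbours on chromosome 12, Fam177a, Srp54b, 1700047I17Rik2 and Srp54c, not all adjacent, was higher in KO. The 7 lower genes were Slfn8, Dhx40, Trim25, Cdc42bpg, Taf4b, Zyg11b and 1 gene without a symbol. The set held 13 to 47 genes when 1 library was left out, with the lowest counts without challenged WT replicate 1 (13) or 2 (15) and challenged KO replicate 1 (18) or 2 (21). It held 14 without the 4 most salivary libraries and 1 with the salivary score.

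Il17a, the cytokine gene named in the study's title, had 13.9, 21.2 and 29.1 CPM in sensitized KO libraries, against 0.345, 0.696 and 0.619 CPM in sensitized WT libraries, and 9.12, 6.94 and 6.46 CPM in challenged KO libraries, against 0.637, 0.606 and 1.07 CPM in challenged WT libraries. KO libraries were above WT libraries in both states, with no overlap. The averaged log2 fold change was 4.26 ± 0.25 (SE; edgeR adjusted p 2.03e-06), made up of 5.26 ± 0.36 in sensitized and 3.27 ± 0.33 in challenged nodes. The excess was thus smaller after challenge (interaction −1.99 ± 0.46, edgeR adjusted p 0.0476), though edgeR called no interaction for any gene with the salivary score as covariate (945 at an unadjusted p under 0.05), nor without challenged WT replicate 3, sensitized KO replicate 1 or sensitized KO replicate 2 (3105, 3012 and 2797 unadjusted). The score differs by genotype in opposite directions in the 2 states and so overlaps with the interaction. A call lost with the score can therefore not be read either way. DESeq2 called 1287 interactions over all genes. Its neighbour Il17f, encoding the related cytokine IL-17F, had 6.15, 10.8 and 17.1 CPM in sensitized KO libraries, against 1.24, 0.777 and 0.310 CPM in sensitized WT libraries, and 3.40, 3.04 and 3.52 CPM in challenged KO libraries, against 0.705, 1.27 and 2.14 CPM in challenged WT libraries. Its averaged difference was 2.57 ± 0.35 (edgeR adjusted p 0.00210), but in challenged nodes alone it did not pass (1.27 ± 0.48, adjusted p 0.241). The promoters printed above carry AGGTCA once each, 120 bases before the start in Il17a, on the reverse strand, and 58 bases before it in Il17f.

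Il23r, the receptor chain for IL-23 that sustains type 17 cells, had 4.40, 7.23 and 8.16 CPM in sensitized KO libraries, against 1.87, 3.16 and 1.60 CPM in sensitized WT libraries, and 3.84, 1.72 and 3.04 CPM in challenged KO libraries, against 1.36, 1.30 and 1.60 CPM in challenged WT libraries. It differed by 1.29 ± 0.25 (edgeR adjusted p 0.0131), and passed in sensitized nodes alone (adjusted p 0.0230) but not in challenged nodes alone (adjusted p 0.200). Without the 4 most salivary libraries its adjusted p was 0.104, the highest of the 21 alternatives run, which otherwise gave values below 0.05.

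Of 19 tested genes on a list of IL-17 cytokines and type 17 regulators, 7 were higher and 1 lower, against 2.86% and 1.77% of all genes. The median averaged log2 fold change was 0.43, against 0.02 for all genes, and 0.88 in sensitized and 0.15 in challenged nodes. Members that passed upward also included Il1r1, the IL-1 receptor (1.17 ± 0.15, edgeR adjusted p 0.00166), and Tmem176a and Tmem176b, a pair of ion channel genes (0.43 and 0.38). Stat3, the transcription factor that conveys IL-6 and IL-23 signals, was the member that fell (−0.27 ± 0.06, edgeR adjusted p 0.0295). No member was called lower in 8 of the 12 fits without 1 library, with the salivary score or without the 4 most salivary libraries. Among the 11 that did not pass, Il22 differed by 1.31 ± 0.52 (edgeR adjusted p 0.180). It was at 0.983, 0.775 and 0.748 CPM in sensitized KO and 0.173, 0 and 0.0953 CPM in sensitized WT libraries, but at 0.936, 0.196 and 0.699 CPM in challenged KO and 0.842, 0.789 and 1.12 CPM in challenged WT libraries, where the groups overlapped. Ccr6, a chemokine receptor of type 17 cells, differed by 0.18 ± 0.19 and also failed the test (edgeR adjusted p 0.669). Without the 4 most salivary libraries 4 members passed, all upward.

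Most tested genes of γδ T cells were higher in KO. Of 17 tested members of that list, 13 had the same sign in both states, and 12 passed upward and 0 downward (0 also at an unadjusted p under 0.05 and in DESeq2). At an unadjusted p under 0.05, 3523 of all genes had the same sign (17.6%), and DESeq2's Wald test called 1849 of the 14674 genes to which it gave an adjusted p (12.6%). The list's median was 1.17 averaged, 0.96 in sensitized and 1.18 in challenged nodes. Between 11 and 13 passed when 1 library was left out, 9 without the 4 most salivary libraries and 10 with the salivary score. Summed over 15 markers, γδ T cell RNA was 409 to 554 CPM in sensitized KO, against 151 to 161 CPM in sensitized WT libraries, and 306 to 456 CPM in challenged KO, against 217 to 272 CPM in challenged WT libraries. The markers include passed genes such as Il17a, Tcrg-C1, Trdc and Cd163l1, so the sum is not separate from those calls. In whole nodes, more cells of a type and more RNA per cell cannot be told apart.

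Tcrg-C1, a constant region of the γ chain, had 25.0, 30.8 and 31.3 CPM in sensitized KO libraries, against 4.29, 4.26 and 2.55 CPM in sensitized WT libraries, and 24.6, 16.3 and 12.8 CPM in challenged KO libraries, against 2.64, 2.50 and 3.04 CPM in challenged WT libraries. With no overlap in either state, it differed by 2.85 ± 0.18 (edgeR adjusted p 3.08e-06). Tcrg-C2 and Tcrg-C4, other γ constant regions, differed by 1.92 ± 0.20 and 1.496 ± 0.16 (edgeR adjusted p 0.000436 and 0.000486). The γ constant regions are similar in sequence, so how reads were shared among them is uncertain. Trdc, the δ constant region, had 45.9, 65.3 and 70.9 CPM in sensitized KO libraries, against 15.5, 19.3 and 14.3 CPM in sensitized WT libraries, and 54.6, 41.2 and 26.9 CPM in challenged KO libraries, against 14.8, 13.1 and 12.8 CPM in challenged WT libraries. Its averaged difference of 1.74 ± 0.16 (edgeR adjusted p 0.000136) was smaller than that of Tcrg-C1, in a comparison of point values only.

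Cd163l1, the SCART1 gene, had 65.2, 83.3 and 70.9 CPM in sensitized KO libraries, against 5.70, 9.83 and 7.93 CPM in sensitized WT libraries, and 106, 48.4 and 35.5 CPM in challenged KO libraries, against 10.9, 5.86 and 8.35 CPM in challenged WT libraries. Groups were apart in both states, by 3.07 ± 0.26 on average (edgeR adjusted p 6.25e-05). Its neighbour 5830411N06Rik, the SCART2 gene, differed by 1.73 ± 0.16 (edgeR adjusted p 0.000114). Sox13, a transcription factor of IL-17-producing γδ T cells, had 7.54, 11.1 and 12.8 CPM in sensitized KO libraries, against 3.77, 3.35 and 11.2 CPM in sensitized WT libraries, and 16.1, 13.2 and 5.42 CPM in challenged KO libraries, against 0.933, 1.08 and 0.404 CPM in challenged WT libraries. In sensitized nodes the groups overlapped and it did not pass alone (0.78 ± 0.49, adjusted p 0.394), whereas in challenged nodes they were apart (3.85 ± 0.56, adjusted p 0.0139). An interaction was called for 422 of all genes tested (2.11%) and for 20 of the 926, and among the 19 of these that were higher in KO, Sox13 alone had its larger excess in challenged nodes (interaction 3.07 ± 0.73, adjusted p 0.0495). This call was lost in the same 4 alternatives as that of Il17a, in which no gene had a call. Whether either gene kept its call in the other alternatives is not given here. Blk, a kinase of B cells and of IL-17-producing γδ T cells, differed in sensitized nodes (0.96 ± 0.13, edgeR adjusted p 0.00213) and did not pass in challenged nodes (0.06 ± 0.13, adjusted p 0.921).

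The receptor segments that passed in each state were those of few variable genes. Tcrg-V6, a γ variable segment, had 3.66, 4.22 and 3.12 CPM in sensitized KO libraries, against 0, 0.321 and 0.262 CPM in sensitized WT libraries, and 2.81, 2.38 and 0.771 CPM in challenged KO libraries, against 0.0910, 0.257 and 0.0879 CPM in challenged WT libraries. Trdv4, a δ variable segment, had 10.4, 12.6 and 11.9 CPM in sensitized KO libraries, against 0.662, 1.55 and 0.500 CPM in sensitized WT libraries, and 9.71, 5.91 and 2.36 CPM in challenged KO libraries, against 0.250, 0.532 and 0.668 CPM in challenged WT libraries. Both were low in every WT library and above it in every KO library, with averaged differences of 3.97 ± 0.54 and 3.65 ± 0.38 (edgeR adjusted p 0.00192 and 0.000404). Tcrg-V4 differed by 2.19 ± 0.31 (edgeR adjusted p 0.00237) without passing in challenged nodes alone (adjusted p 0.132). These segments were singled out after their values were seen.

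**Figure D2:**
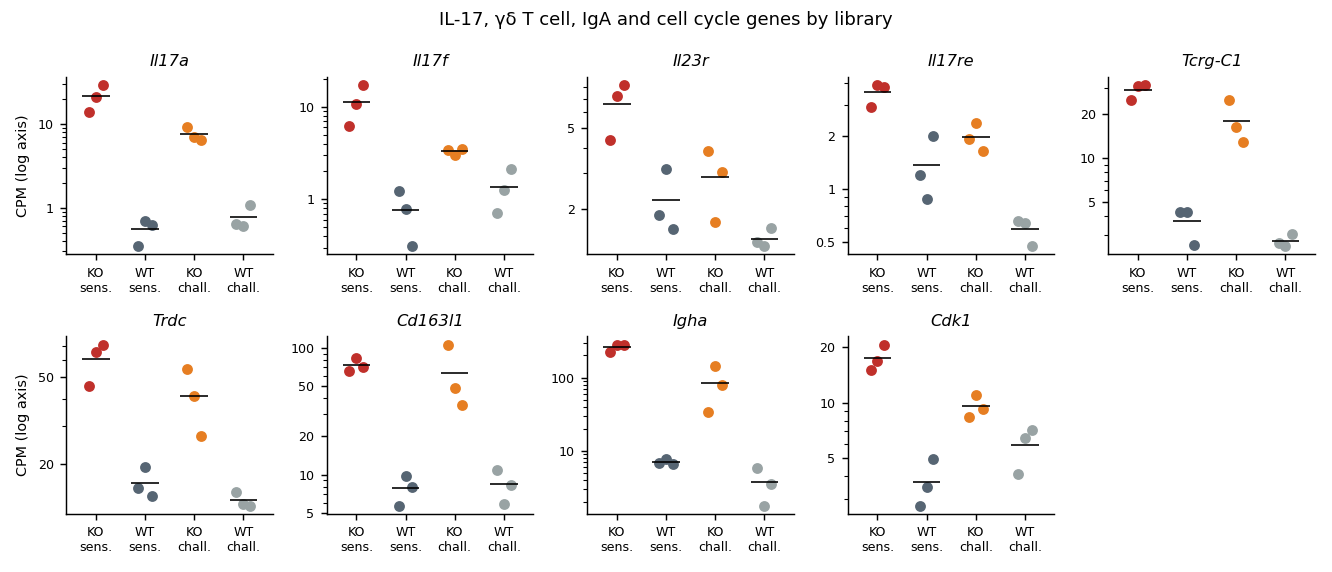
CPM (y axes, log scale, 1 per gene) of 9 genes in each library, with sensitized KO, sensitized WT, challenged KO and challenged WT from left to right; points are libraries, with 3 per group, and bars are group means. Within each state the KO points lie above the WT points in every panel.

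The cytokines of other T cell arms gave no shared call. On the Th1 and interferon-γ list 0 of 12 genes passed (1 higher and 1 lower at an unadjusted p under 0.05, 0 in DESeq2), and on the regulatory T cell list 0 of 12 (1 higher and 1 lower unadjusted, 1 higher and 1 lower in DESeq2). Ifng, the Th1 cytokine, had 2.13, 1.40 and 1.80 CPM in sensitized KO libraries, against 1.18, 2.22 and 2.10 CPM in sensitized WT libraries, and 4.30, 5.93 and 4.19 CPM in challenged KO libraries, against 6.98, 3.73 and 7.73 CPM in challenged WT libraries, and its averaged difference was −0.20 ± 0.23 (edgeR adjusted p 0.699). Tbx21, which encodes the Th1 factor T-bet, differed by −0.19 ± 0.16 (adjusted p 0.570). Foxp3, the factor of regulatory T cells, differed by −0.01 ± 0.08 and Il10 by 0.02 ± 0.18 (edgeR adjusted p 0.974 and 0.978). Il4 and Il13, cytokines of Th2 cells, were at most 1.09 CPM in any library, and their differences carried wide errors (−0.12 ± 0.93 and −0.46 ± 0.41). Gata3, the Th2 factor, differed by −0.11 ± 0.12 (edgeR adjusted p 0.695).

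Of the 9 tested Th2 genes 2 were higher and 1 lower. Ccr4, a chemokine receptor of Th2 and type 17 cells, differed by 0.92 ± 0.18 (edgeR adjusted p 0.0145). Without the 4 most salivary libraries its adjusted p was 0.0743 and no gene of the list passed. Il1rl1, the IL-33 receptor, differed by −0.72 ± 0.18 (edgeR adjusted p 0.0412), but lost its call in 10 of the 12 fits without 1 library, with adjusted p of up to 0.101. Among genes of naive and resting T cells 4 of 14 were lower and 0 higher (0 also unadjusted and in DESeq2). Satb1, a chromatin organizer of T cells, had 509, 441 and 381 CPM in sensitized KO libraries, against 726, 651 and 649 CPM in sensitized WT libraries, and 694, 696 and 701 CPM in challenged KO libraries, against 924, 939.7 and 869 CPM in challenged WT libraries. Every KO library was below every WT library of its state, by −0.50 ± 0.07 on average (edgeR adjusted p 0.00274). Lef1, a transcription factor of resting T cells whose site is printed above, differed in sensitized nodes (−0.63 ± 0.10, edgeR adjusted p 0.00472) and did not pass in challenged nodes (−0.04 ± 0.10, adjusted p 0.921). The list's count dropped to 1 without the 4 most salivary libraries and to 2 with the salivary score, as well as without sensitized WT replicate 1, challenged WT replicate 2 or challenged KO replicate 2.

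Igha, the IgA heavy chain constant gene, was higher in KO in both states. It had 224, 282 and 281 CPM in sensitized KO libraries, against 6.85, 7.79 and 6.72 CPM in sensitized WT libraries, and 34.2, 142 and 80.2 CPM in challenged KO libraries, against 5.82, 1.80 and 3.57 CPM in challenged WT libraries. KO libraries lay above WT libraries in both states without overlap, though the 3 challenged KO libraries spread widely. The averaged log2 fold change was 4.87 ± 0.34 (edgeR adjusted p 1.04e-05), 5.20 ± 0.49 in sensitized and 4.53 ± 0.48 in challenged nodes. Of 13 tested immunoglobulin constant genes and J chain, 5 were higher and 0 lower (0 also unadjusted and in DESeq2). Another 2 passed with opposite signs in the states, and 9 of the 13 had the same sign in both. Jchain, which links IgA and IgM into multimers, differed by 1.48 ± 0.30 and Ighg2b, a constant region of IgG, by 1.97 ± 0.37 (edgeR adjusted p 0.0180 and 0.0117). For these the groups overlapped in challenged nodes, where neither passed (0.71 ± 0.42 and 1.00 ± 0.51). Ighm, the constant region of IgM, differed by 0.14 ± 0.09 (adjusted p 0.405). The list's count was 1 without the 4 most salivary libraries, 2 without challenged WT replicate 2, and 3 without sensitized KO replicate 1 or challenged KO replicate 3.

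Plasma cells secrete antibody, and 6 of 18 genes on a list of their regulators and secretory machinery were higher and 0 lower (1 lower unadjusted and 1 in DESeq2). Another 1 passed with opposite signs in the states. Pdia4, a protein-folding enzyme of the endoplasmic reticulum, differed by 0.43 ± 0.07 and Hsp90b1, a chaperone there, by 0.33 ± 0.06 (edgeR adjusted p 0.00671 and 0.0131). None of the 6 passed without the 4 most salivary libraries. Plasma cell markers summed to 765 to 865 CPM in sensitized KO, against 329 to 419 CPM in sensitized WT libraries, and to 462 to 619 CPM in challenged KO, against 454 to 503 CPM in challenged WT libraries. This sum holds Igha, Jchain, Mzb1 and Sdc1, which had passed themselves, so it is not a separate measure of plasma cells. B cell markers, by contrast, summed to 2007 to 3051 CPM in sensitized KO, against 1263 to 1643 CPM in sensitized WT libraries, and to 2055 to 3175 CPM in challenged KO, against 2587 to 3343 CPM in challenged WT libraries. The part of these shifts in the immunoglobulin results was not tested. Ccr10, a chemokine receptor found on IgA-secreting cells, had 3.22, 1.72 and 3.16 CPM in sensitized KO libraries, against 0.576, 1.07 and 0.238 CPM in sensitized WT libraries, and 2.25, 2.72 and 1.08 CPM in challenged KO libraries, against 0.159, 0.459 and 0.228 CPM in challenged WT libraries. It differed by 2.46 ± 0.40 with no overlap in either state (edgeR adjusted p 0.00551), and its adjusted p was 0.0629 without the 4 most salivary libraries, with lower values in the other 20 alternatives.

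Cell cycle genes had the highest share of members passed among the lists. Of 30 tested, 27 were higher and 0 lower (29 higher and 0 lower unadjusted, 27 and 0 in DESeq2), and 1 passed with opposite signs in the states. Their median was 1.15 averaged, 1.58 in sensitized and 0.63 in challenged nodes. Cdk1, the kinase that starts mitosis, had 15.04, 16.8 and 20.7 CPM in sensitized KO libraries, against 2.76, 3.48 and 4.95 CPM in sensitized WT libraries, and 8.32, 11.1 and 9.28 CPM in challenged KO libraries, against 4.09, 6.43 and 7.13 CPM in challenged WT libraries. KO stood above WT in both states, by 1.46 ± 0.17 on average (edgeR adjusted p 0.00104), and by less after challenge (interaction −1.53 ± 0.35, adjusted p 0.0435), a call also lost in those 4 alternatives. Mki67, the proliferation marker Ki-67, differed by 1.24 ± 0.16 and Top2a, a topoisomerase of dividing cells, by 1.27 ± 0.16 (edgeR adjusted p 0.00172 and 0.00163). Kif11, a spindle motor, differed by 1.19 ± 0.13 and Ccnb1, the mitotic cyclin B1, by 1.67 ± 0.20 (edgeR adjusted p 0.000585 and 0.00113). No member of the list passed in each state alone. Ube2c, a mitosis gene outside the list, did so (1.78 ± 0.25 and 1.23 ± 0.25) and was singled out after its values were seen. The count was 23 to 28 when 1 library was left out, 14 with the salivary score and 15 without the 4 most salivary libraries. Germinal centre genes, whose cells divide fast, gave 2 of 14 higher (7 higher unadjusted, 5 in DESeq2). Mybl1, a transcription factor of these cells, lost its call in 11 of 12 fits without 1 library (edgeR adjusted p up to 0.119).

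**Figure D3:**
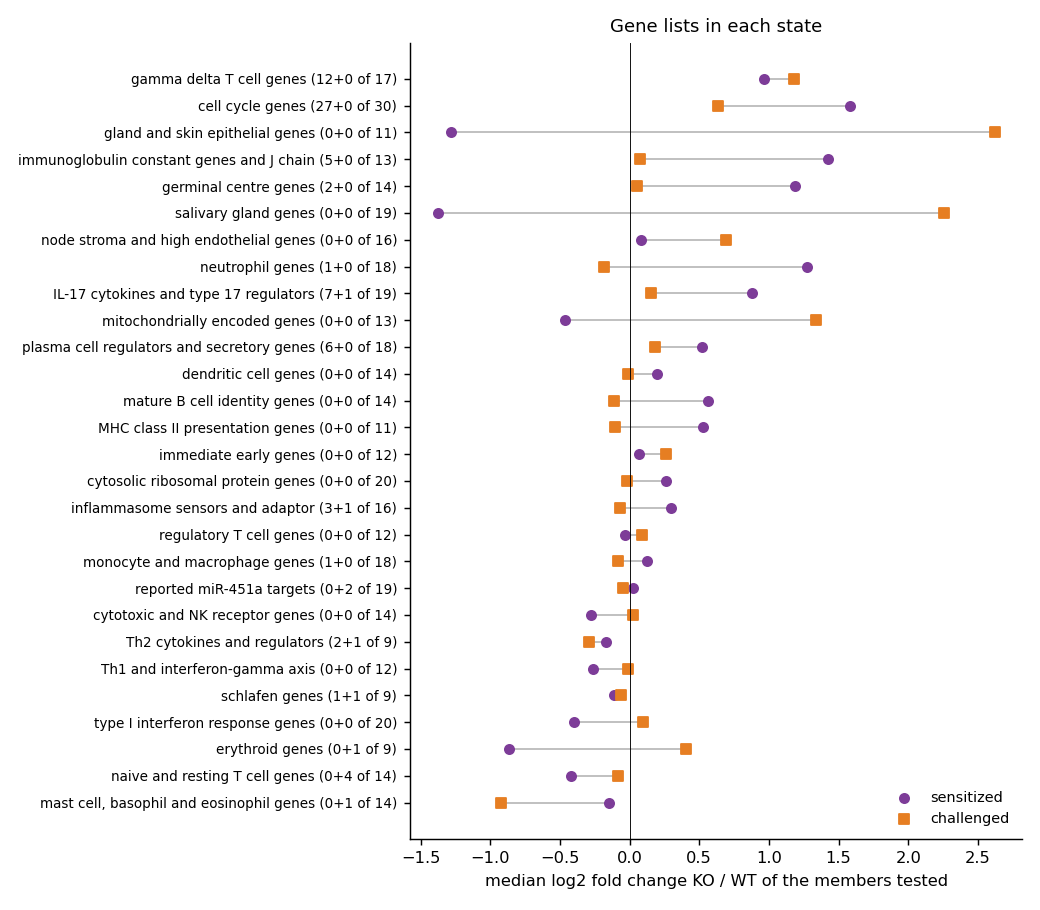
Median log2 fold change of KO over WT (x axis) of the tested members of each gene list (rows), in sensitized nodes (purple circles) and challenged nodes (orange squares); the label gives members passed higher plus lower of those tested. The γδ T cell and cell cycle medians are above 0 in both states, while the salivary, epithelial and mitochondrial lists change sign between states and hold 0 calls. No member of the latter lists had the same sign in both states, so none could pass with it.

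Shared calls among myeloid and mast cell genes were near or above the 4.62% of all genes tested. Of 18 neutrophil genes 1 passed, higher in KO (5.56%, with 5 higher unadjusted and 2 in DESeq2). Another 1 passed with opposite signs, and 5 of the 18 had the same sign in both states. The monocyte and macrophage list gave 1 of 18 (5.56%). S100a9, a calcium-binding protein of neutrophils, had 168, 168 and 107 CPM in sensitized KO libraries, against 22.0, 49.7 and 40.8 CPM in sensitized WT libraries, and 61.6, 96.8 and 192 CPM in challenged KO libraries, against 131, 80.9 and 112 CPM in challenged WT libraries. The groups were apart in sensitized nodes and overlapped in challenged nodes, and its call (1.05 ± 0.26, edgeR adjusted p 0.0425) was lost in 10 of 12 fits without 1 library, with adjusted p of up to 0.109. Neutrophil markers, S100a9 among them, summed to 301 to 516 CPM in sensitized KO, against 75.1 to 134 CPM in sensitized WT libraries, and to 223 to 602 CPM in challenged KO, against 294 to 506 CPM in challenged WT libraries. Tpsb2, a mast cell tryptase, was lower (−0.91 ± 0.23, edgeR adjusted p 0.0422) and lost its call in 10 of 12 such fits. It was the only 1 of 14 genes of mast cells, basophils and eosinophils to pass (7.14%). Of that list 6 were lower and 1 higher unadjusted, and 3 were lower in DESeq2. Of 20 type I interferon response genes 0 passed (0 also unadjusted and in DESeq2), with a median of −0.16.

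The 2 smallest adjusted p-values of the averaged comparison belonged to Slfn9 and Slfn8, members of a family of growth and antiviral regulators in a cluster on chromosome 11. Slfn9 had 46.6, 33.8 and 39.4 CPM in sensitized KO libraries, against 5.73, 5.89 and 4.72 CPM in sensitized WT libraries, and 119, 119.6 and 95.5 CPM in challenged KO libraries, against 10.5, 8.23 and 9.81 CPM in challenged WT libraries. Slfn8, the next tested gene, had 5.83, 6.18 and 5.36 CPM in sensitized KO libraries, against 48.5, 36.4 and 26.9 CPM in sensitized WT libraries, and 17.95, 15.4 and 15.4 CPM in challenged KO libraries, against 102, 95.8 and 77.9 CPM in challenged WT libraries. Slfn9 was thus higher in all KO libraries (3.21 ± 0.11, edgeR adjusted p 6.81e-09) and Slfn8 lower in all KO libraries (−2.59 ± 0.13, adjusted p 5.57e-07). Their promoters printed above align over 295 bases with 246 identical (83.4%), and each carries the searched pattern, 45 bases before the start in Slfn9 and 48 in Slfn8. Reads of such close copies can be assigned to either, so each gene's value is uncertain.

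Added together, the 2 genes were closer between genotypes than either alone. Their summed level was 45.7 ± 6.28 CPM in sensitized KO, against 42.7 ± 11.3 CPM in sensitized WT libraries, a ratio of 1.07 (SD, n = 3 each). In challenged nodes it was 128 ± 14.6 CPM in KO, against 101 ± 12.5 CPM in WT, a ratio of 1.26. What differed was the split between them. Slfn9 took 84.5 to 88.9% of the sum in sensitized KO, against 10.6 to 14.9% in sensitized WT libraries, and 86.1 to 88.6% in challenged KO, against 7.91 to 11.2% in challenged WT libraries. Of the other 7 Schlafen genes tested none passed in edgeR, and 2 were lower at an unadjusted p under 0.05. Of the 7, Slfn2 differed by 0.08 and Slfn5 by −0.52, with edgeR adjusted p of 0.570 and 0.0680. DESeq2 called 1 Schlafen gene higher and 2 lower.

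Naip6, which encodes a sensor of bacterial flagellin for the NLRC4 inflammasome, was nearly absent in WT. It had 312, 205 and 284 counts in sensitized KO libraries, against 4, 0 and 0 counts in sensitized WT libraries, and 394, 247 and 303 counts in challenged KO libraries, against 0 in all 3 challenged WT libraries. The sensitized excess was 153-fold and rests on 4 WT counts, and the challenged level was at least 369-fold higher, taken against 3 counts over the WT group (edgeR adjusted p of the averaged difference 1.06e-05). Its neighbours Naip5 and Naip2, which encode related sensors of bacterial proteins, differed by −0.20 ± 0.15 and −0.08 ± 0.11 (adjusted p 0.516 and 0.755). Naip3-ps1, another Naip copy on chromosome 13, passed in the same direction as Naip6, higher in KO in both states (edgeR adjusted p 0.0441). Its KO and WT libraries were apart in challenged but not in sensitized nodes. Reads may be shared among these related genes. The sum of Naip2, Naip5 and Naip6 was 1.23 times as high in KO in sensitized and 1.09 times as high in challenged nodes. Naip3-ps1 is not part of that sum.

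Nlrp1a, which encodes another inflammasome sensor and lies on chromosome 11, ran the other way. It had 0 counts in all 6 KO libraries, against 32, 15 and 0 counts in sensitized WT and 86, 99 and 52 counts in challenged WT libraries. Taken against 3 counts over the KO group it was at least 20.5-fold lower in sensitized and at least 67.4-fold lower in challenged nodes (edgeR adjusted p 0.0134). Of its neighbour Nlrp1b the levels overlapped between genotypes in both states (−0.61 ± 0.28, adjusted p 0.246). Pycard, the adaptor ASC that inflammasome sensors share, was higher (0.48 ± 0.07, edgeR adjusted p 0.00303), but lost the call without the 4 most salivary libraries (adjusted p 0.0695). Of 16 inflammasome genes tested 3 were higher and 1 lower, and Nlrp3, Aim2 and Nlrc4 did not pass.

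**Figure D4:**
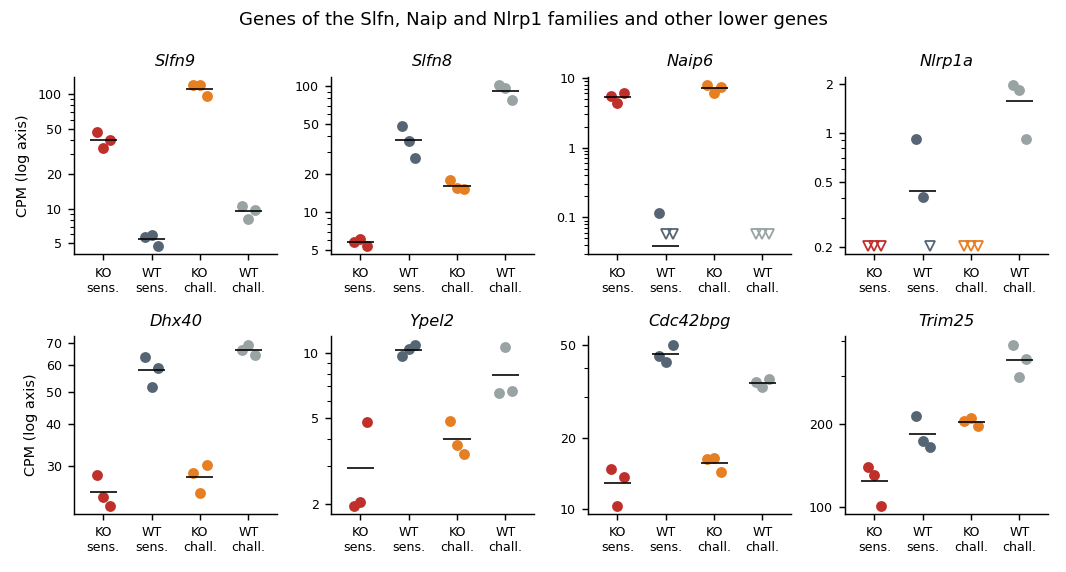
CPM (y axes, log scale, 1 per gene) of Slfn9, Slfn8, Naip6, Nlrp1a, Dhx40, Ypel2, Cdc42bpg and Trim25 in each library, in the order sensitized KO, sensitized WT, challenged KO and challenged WT; filled points are libraries, bars are group means, and open triangles stand for libraries with 0 counts, drawn below the gene's lowest nonzero value. Slfn9 and Naip6 are high in KO and low or absent in WT in both states, and the other 6 genes run the other way, with 1 sensitized WT library of Nlrp1a also at 0.

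Among the lower genes, Dhx40, a putative RNA helicase, had 28.2, 24.2 and 22.8 CPM in sensitized KO libraries, against 63.6, 51.5 and 58.7 CPM in sensitized WT libraries, and 28.6, 24.8 and 30.2 CPM in challenged KO libraries, against 66.8, 69.3 and 64.5 CPM in challenged WT libraries. The difference was −1.21 ± 0.11 in sensitized and −1.26 ± 0.11 in challenged nodes, close to even (interaction −0.05 ± 0.15, adjusted p 0.919), with an averaged edgeR adjusted p of 2.59e-06. Ypel2, of the Yippee family and next to Dhx40 in gene order, had 1.97, 2.04 and 4.81 CPM in sensitized KO libraries, against 9.70, 10.4 and 10.9 CPM in sensitized WT libraries, and 4.84, 3.75 and 3.42 CPM in challenged KO libraries, against 6.51, 10.6 and 6.63 CPM in challenged WT libraries and differed by −1.40 ± 0.23 (edgeR adjusted p 0.00551). Cdc42bpg, a kinase of the cytoskeleton, had 14.8, 10.3 and 13.6 CPM in sensitized KO libraries, against 45.0, 42.4 and 50.3 CPM in sensitized WT libraries, and 16.3, 16.4 and 14.4 CPM in challenged KO libraries, against 35.0, 33.0 and 35.7 CPM in challenged WT libraries. Its difference was −1.48 ± 0.09 (edgeR adjusted p 2.59e-06). Trim25, a ubiquitin ligase of antiviral RNA sensing, had 141, 131 and 102 CPM in sensitized KO libraries, against 215, 174 and 166 CPM in sensitized WT libraries, and 205, 211 and 197 CPM in challenged KO libraries, against 389, 297 and 344 CPM in challenged WT libraries, and differed by −0.66 ± 0.10 (edgeR adjusted p 0.00291). Smaller falls were measured for Taf4b, a subunit of the general transcription factor TFIID (−0.66 ± 0.08), Zyg11b, a substrate receptor of a ubiquitin ligase (−0.54 ± 0.08), and Pde3b, a cyclic nucleotide phosphodiesterase (−0.66 ± 0.10). Of 9 erythroid genes tested 0 were higher and 1 was lower. Erythroid genes together took 0.576% of counts in KO and 0.667% in WT (difference −0.0915 percentage points, exact permutation test within states, two-sided p = 0.73).

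Several higher genes had no tie to the lists. Adam12, a cell-surface metalloprotease, had 4.77, 6.80 and 8.06 CPM in sensitized KO libraries, against 0.892, 0.429 and 0.476 CPM in sensitized WT libraries, and 6.17, 3.04 and 2.87 CPM in challenged KO libraries, against 0.318, 0.716 and 1.07 CPM in challenged WT libraries and differed by 2.98 ± 0.33 (edgeR adjusted p 0.000568). AA465934, which the annotation names without a role, had 7.60, 7.04 and 7.71 CPM in sensitized KO libraries, against 0.662, 1.4998 and 1.17 CPM in sensitized WT libraries, and 5.39, 6.25 and 6.20 CPM in challenged KO libraries, against 0.478, 1.06 and 0.703 CPM in challenged WT libraries and differed by 2.86 ± 0.23 (edgeR adjusted p 3.18e-05). Arnt2, a transcription factor partner of the aryl hydrocarbon receptor family, differed by 2.24 ± 0.24 by like amounts in the 2 states (2.25 ± 0.33 in sensitized and 2.24 ± 0.33 in challenged nodes). Xaf1, an interferon-induced inhibitor of anti-apoptotic proteins, had 40.7, 34.2 and 32.6 CPM in sensitized KO libraries, against 21.2, 13.9 and 7.69 CPM in sensitized WT libraries, and 176, 198 and 139.9 CPM in challenged KO libraries, against 46.9, 41.5 and 53.8 CPM in challenged WT libraries and differed by 1.59 ± 0.19 (edgeR adjusted p 0.000867). Msc, which encodes the transcription factor musculin, and Stmn2, a tubulin regulator, were at most 2.00 CPM in any library and differed by 4.12 ± 0.80 and 3.89 ± 0.80 (edgeR adjusted p 0.0138 and 0.0178). Both lost the call without the 4 most salivary libraries (adjusted p 0.156 and 0.173), and Stmn2 also without sensitized KO replicate 2 (0.0504). Acaa1b, Tdrd9 and Cryba4, also among the 15 largest rises, were at most 3.36 CPM in any library and lost the call in 7, 9 and 8 of the 12 fits without 1 library.

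On chromosome 12 the near neighbours Srp54a, Fam177a, Srp54b, 1700047I17Rik2 and Srp54c were higher in KO by 0.70, 0.99, 0.85, 1.04 and 0.57. They stood at places 206, 207, 209, 210 and 212 of the tested genes, and the tested genes between them are not described here. Srp54 encodes the GTPase of the signal recognition particle, and its 3 mouse copies are nearly alike. Their sum was 155 ± 9.87 CPM in sensitized KO, against 99.8 ± 3.51 CPM in sensitized WT libraries, and 137 ± 1.32 CPM in challenged KO, against 80.2 ± 2.94 CPM in challenged WT libraries (SD, n = 3 each). The ratios were 1.56 and 1.71, and the groups did not overlap. A sum leaves aside only the split of reads among these 3 copies. Reads lost or assigned from elsewhere, and sequence differences between the KO and WT mice, were not tested.

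The gene for miR-451a lies on chromosome 11, which held the highest share of shared genes. There 98 of 1444 tested genes passed (6.79%), 58 higher and 40 lower, while the other chromosomes held 3.38 to 5.81%. It held 6 of the 32 genes that passed in each state, while chromosome 13 also held 6, of 785 genes tested, and chromosome 12 held 5 of 801. All 6 of chromosome 11 stood within 200 tested genes of Mir451a: Xaf1 94 genes before it, and Slfn9, Slfn8, AA465934, Dhx40 and Trim25 at 74, 75, 85, 136 and 172 genes after it. Ypel2 and Nlrp1a stood 137 genes after it and 103 before it. In blocks of 100 tested genes, 11 passed in the first block after Mir451a and 13 in the next, while the 100 genes before it held 7 and the full blocks farther away held 2 to 11. These are positions only, taken from the gene order of GRCm38, and what lies behind them was not tested.

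**Figure D5:**
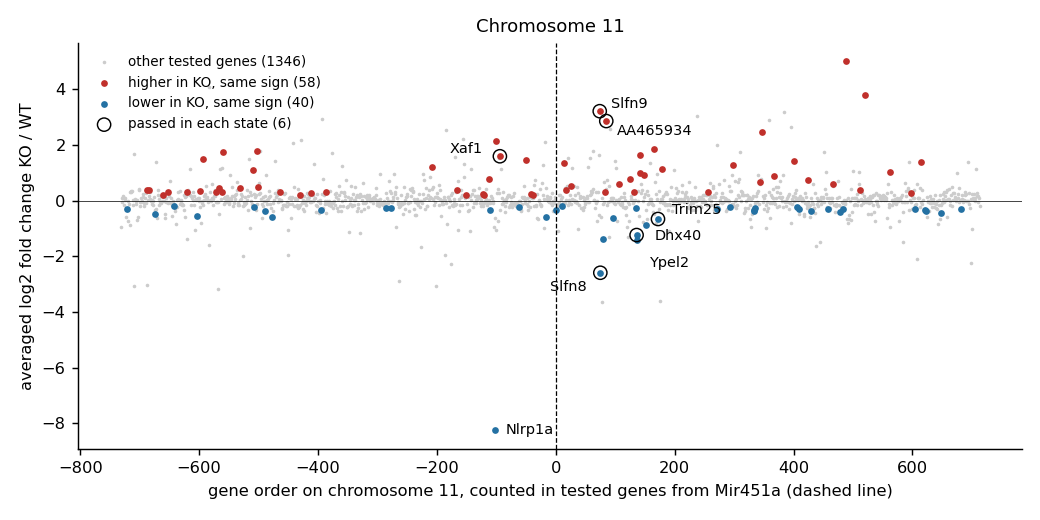
Averaged log2 fold change of KO over WT (y axis) of the 1444 tested genes of chromosome 11 by their order along it, counted in tested genes from Mir451a at 0 (x axis). Red and blue points are the 58 higher and 40 lower shared genes and circles the 6 that passed in each state, which lie between 94 genes before and 172 genes after Mir451a.

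Direct targets were looked for by seed match. Mir451a itself was not analysed here, and Mir144, its cluster neighbour, had 0 to 2 counts in KO and 0 in WT libraries, too few to test. Of 14495 tested genes with an annotated 3′ UTR, 375 carried AACGGTT, the 7 bases that pair with the seed. Among them 9 were higher (2.40%) and 6 lower (1.60%) in KO, against 503 (3.56%) and 317 (2.25%) of the 14120 without a match. Medians were −0.003 with and 0.03 without a match. With AACGGTTA, the same 7 bases followed by A, 1 of 81 genes was higher and 2 were lower. The higher 1 was Cep55, a scaffold of cell division (0.87 ± 0.20, edgeR adjusted p 0.0311), and the lower were Rnf103, a ubiquitin ligase (−0.23 ± 0.05, edgeR adjusted p 0.0299), and Kdm5a, a histone demethylase (−0.27 ± 0.06, edgeR adjusted p 0.0340). Their sites are those printed at the opening.

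Of 19 tested genes on a list of reported miR-451a targets, 0 were higher and 2 lower (3 higher and 4 lower unadjusted, 1 and 2 in DESeq2), with a median of −0.004. Ywhaz, which encodes the 14-3-3ζ protein and is the best-known target in red cell precursors, had 525, 533 and 512 CPM in sensitized KO libraries, against 539, 509.8 and 498 CPM in sensitized WT libraries, and 497, 512 and 492 CPM in challenged KO libraries, against 511, 520.2 and 500.1 CPM in challenged WT libraries. Its averaged difference was −0.0041 ± 0.05 (edgeR adjusted p 0.981). Mif, a cytokine, differed by 0.22 ± 0.07, Cab39, a kinase scaffold, by −0.05 ± 0.05 and Tsc1, an inhibitor of mTOR signalling, by −0.14 ± 0.07 (edgeR adjusted p 0.123, 0.663 and 0.244). The 2 that passed, Bcl2, an inhibitor of apoptosis (−0.23 ± 0.05), and Atf2, a transcription factor (−0.23 ± 0.06), were lower in KO and lost their calls in 10 and 10 of the 12 fits without 1 library.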

How the data were processed

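RNA of mouse mandibular lymph nodes was sequenced in 12 libraries. The values are estimated counts per gene, whole numbers as the authors deposited them, for 56941 Ensembl genes. Per the submitters' processing notes, the tools were fastp 0.23.2, HISAT2 2.2.1 and StringTie 2.2.1 with the build GRCm39. Per the labels' protocols, libraries were made with a directional kit. Whether counting used strand is not given in the sources used here. Names, gene order and 3′ UTRs came from GENCODE on GRCm38 (51948 IDs matched).

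Libraries were grouped by the labels. edgeR 4.0.16 in R 4.3.3 (quasi-likelihood test, filterByExpr at 10 counts, TMM) was fitted to all 12 libraries with 1 mean per group, which leaves 8 residual degrees of freedom. Its contrasts were the averaged genotype effect, genotype in each state and their interaction, two-sided, with Benjamini-Hochberg adjustment over 20034 genes. Differences are log2 fold changes of KO over WT ± SE of the model. The fit was tested on simulated data. Replicate numbers are not explained by the labels and were not used as a block in this fit.

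The genes named are 15 genes fixed by name (the miRNA genes, and cytokines, receptors and factors of type 17, Th1, Th2 and regulatory T cells), the 15 largest rises and 15 largest falls whose groups did not overlap in either state (without predicted genes, receptor segments and genes whose higher group mean was under 20 counts), and up to 4 members per list by smallest p; others were singled out after their values were seen. The text names part of them, and results for some items are not reported here. The genes, the 29 gene lists and the rules were chosen with earlier results of these data known, so counts over lists are descriptions. Folds against a group at 0 use 3 counts over that group. Alternatives were other scaling, filters, models and tests (DESeq2 1.42.0), each library left out, and salivary content and sex as covariates or exclusions. Counts per list under these alternatives, and the summed levels of gene copies, were added after the data were seen.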

Additional observations from a re-analysis of the deposited data

Results flagged for a closer look

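The genotype difference of 3 named genes itself differed between the states by edgeR's interaction test. Il17a was higher in KO in both states, with a change of −1.99 ± 0.46 in its log2 fold change from sensitized to challenged nodes (edgeR adjusted p 0.0476). Cdk1, also higher in KO in both, changed by −1.53 ± 0.35 (edgeR adjusted p 0.0435). Mzb1, which encodes a chaperone of antibody-secreting cells, changed by −1.23 ± 0.27 (edgeR adjusted p 0.0380). It had 64.6, 47.9 and 42.2 CPM in sensitized KO libraries, against 23.6, 16.6 and 21.9 CPM in sensitized WT libraries, and 29.8, 34.3 and 43.1 CPM in challenged KO libraries, against 32.2, 29.1 and 39.6 CPM in challenged WT libraries, so that its excess was seen in sensitized nodes (1.32 ± 0.19) and its groups overlapped in challenged nodes (0.09 ± 0.19). Over all genes 422 interactions were called (2.11%), and the count was 0 with a salivary score as covariate, where 945 genes had an unadjusted p under 0.05 (1287 calls by DESeq2 without the score). It was also 0 without challenged WT replicate 3, sensitized KO replicate 1 or sensitized KO replicate 2 (3105, 3012 and 2797 unadjusted), so the 3 calls were lost in each of these 4 alternatives. It was 3 without challenged KO replicate 1, and 47 without sensitized WT replicate 3 or without challenged KO replicate 2. Whether the 3 named genes were among these calls is not given here. The salivary share differed between genotypes in opposite directions in the 2 states, and its part in these 3 results was not tested. The salivary score did so too and thus overlaps with the interaction, so the 0 calls with the score cannot be read either way.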

How the results depend on the processing

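Against 950 genes in the averaged comparison, 926 with the same sign, 32 passed in each state and 422 interactions, other settings gave the following. No low-count filter gave 601, 588 and 267 (averaged, same sign, interaction), and an additive model 551 averaged. A salivary score as covariate gave 378, 337, 1 and 0 (945 interactions unadjusted), and leaving out the 4 most salivary libraries 112, 110, 14 and 168. The score overlaps with the contrasts within a state and with the interaction, and the fit without the 4 libraries has less power. DESeq2's Wald test gave 1977, 1849, 142 and 1287. A replicate block gave 776, 759, 19 and 128; the labels do not say that a number pairs libraries, and deviations of same-numbered libraries correlated at −0.0984 to 0.141, and not every library correlated best with its own number. Leaving out 1 library gave 412 to 1012, 397 to 997, 13 to 47 and 0 to 830; the 0 arose without challenged WT replicate 3, sensitized KO replicate 1 or sensitized KO replicate 2, each with 2797 to 3105 interactions at an unadjusted p under 0.05. DESeq2 size factors, a mean of at least 50 counts and sex as covariate kept all 4 counts within 1.5 times, and the cause of the larger moves was not tested. The share higher in KO among same-sign genes was 61.8%, and 53.8% with DESeq2 size factors, 71.5% with the salivary score and 82.7% without the 4 most salivary libraries.

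Of 62 named genes that passed, 27 passed in each of the alternatives run for them. Signs reversed only for 5 named genes that had not passed. With the salivary score Foxp3 was 0.011, and without the 4 most salivary libraries Tbx21 was 0.0052, Il4 0.17 and Il10 −0.038. With 1 library left out, Ccr6 ranged from −0.0028 to 0.34, Il4 from −0.71 to 0.72, Foxp3 from −0.070 to 0.063 and Il10 from −0.12 to 0.16. Genes with the 7-base seed match followed by A had a median of 0.015, against −0.003 for all with the 7 bases. Depth limits genes such as Il4 and Il13, which were at most 1.09 CPM in any library.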

Other observations

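Other lists gave few or no shared calls, where 4.62% of all genes tested passed. In the class II, mitochondrial and epithelial lists no member had the same sign in both states in edgeR's fit, so none could pass with it. Of 14 mature B cell identity genes 0 passed with the same sign (2 higher unadjusted, 1 in DESeq2; 1 passed with opposite signs), of 11 class II antigen presentation genes 0 (0 unadjusted and 0 in DESeq2; 1 passed with opposite signs), and of 14 dendritic cell genes 0 (1 higher unadjusted, 1 in DESeq2). Of 16 genes of node stroma and high endothelium 0 passed (3 higher unadjusted, 2 in DESeq2), of 12 immediate early genes 0 (4 and 1), of 20 cytosolic ribosomal protein genes 0 (0 and 0), of 13 mitochondrially encoded genes 0 (0 and 0), of 11 gland and skin epithelial genes 0 (0 and 0), and of 14 cytotoxic and NK receptor genes 0 (1 higher and 1 lower unadjusted, 1 lower in DESeq2). Of 18 monocyte and macrophage genes 1 was higher (1 lower unadjusted and in DESeq2), Ccr2, a chemokine receptor of monocytes (0.72 ± 0.15, edgeR adjusted p 0.0215). Its excess lay in sensitized nodes (1.28 ± 0.22), and the groups overlapped in challenged nodes (0.17 ± 0.22). The call was lost without the 4 most salivary libraries, in an additive model, and without sensitized WT replicate 1, challenged WT replicate 2 or sensitized KO replicate 2, with adjusted p of up to 0.223 over these and up to 0.0631 when 1 library was left out. Of 5 sex-linked genes 0 passed (0 unadjusted and 0 in DESeq2).

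Txk, a kinase of T cell receptor signalling, and S1pr1, the receptor by which T cells leave nodes, were lower in KO, with log2 fold changes of −0.49 ± 0.09 and −0.30 ± 0.07 (edgeR adjusted p 0.0128 and 0.0365). S1pr1 lost its call in 8 of 12 fits without 1 library, with adjusted p of up to 0.0917. Casp4, a caspase of the non-canonical inflammasome, was higher by 0.37 ± 0.08 (edgeR adjusted p 0.0258), and Areg, a growth factor of type 2 cells, by 0.72 ± 0.18 (edgeR adjusted p 0.0365). In challenged nodes the KO and WT libraries of Txk, S1pr1, Casp4 and Areg overlapped. Casp4 and Areg lost the call in 7 and 9 of such fits. All 4 lost it without the 4 most salivary libraries and with the salivary score.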
